A study of Danio rerio with 4 samples.

Results

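The genes described here are 10 zebrafish genes of bone formation and mineralization, taken by name from the 42298 genes of the deposited tables: the transcription factor genes runx2a, runx2b and sp7, the matrix protein genes bglapl and spp1, the enzyme genes alpl, phex and entpd5a, and the membrane protein genes ifitm5 and panx3. All 10 were found in the tables of all 4 libraries. RNA-seq had been carried out on mCherry-positive cells sorted at 5 dpf (days post-fertilization) from dissociated whole larvae that carried Tg(ins:mCherry), a transgene in which the preproinsulin promoter drives a red fluorescent protein in β-cells. The experiment comprised 2 wild-type libraries and 2 libraries labelled alms1-/-, a genotype for which the allele is not given in the sources used here. The methods name the Tubingen strain, and larvae were pooled for sorting. The labels number the libraries of each genotype 1 and 2 without saying whether they came from separate sorts or clutches, so that p-values measure only the spread between these libraries, which may be technical.

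Bone is laid down by osteoblasts, which in turn derive from mesenchymal cells under the control of Runx2 and, downstream of it, of Sp7 (osterix). Osteoblasts secrete a collagen-rich matrix and the proteins that bind mineral within it, and they set the balance of phosphate and pyrophosphate at the matrix surface, since phosphate feeds the growth of mineral and pyrophosphate inhibits it. In zebrafish larvae of this age the first bones have begun to mineralize. The labels call the sorted cells β-cell enriched. The paper reports expression of known β-cell genes and of zranb3 in sorted wild-type β-cells, but observed none for heart and bone markers. Its main text neither names those bone markers nor gives a limit for expression. In the wild-type libraries every gene described here had reads, with levels given below.

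The libraries held 50467517 and 47766482 reads on genes in wild type, against 42761199 and 48938853 in the mutants. alms1, the gene named in the labels, had 1149 and 832 reads in wild type, against 443 and 1131 in the mutants (log2 fold change -0.81, standard error (SE) 0.37, adjusted p = 0.104), so that its level does not settle the labels. Its log2 fold change was -1.42 without mutant library 2 (adjusted p = 0.0414) and -0.40 without mutant library 1 (adjusted p = 0.484), and the adjusted p ranged from 0.0414 to 0.928 over the alternatives. The insulin gene ins, which defines β-cells, had 20 and 61 reads in wild type, against 534 and 447 in the mutants. The mutant libraries also stood apart by gene span, the distance from the start to the end of a gene. Among protein-coding genes of over 160 kb the median was 18.2 and 12.5 reads per kb in wild type, against 35.9 and 43.7 in the mutants, whereas among genes of 5 to 10 kb it was 38.0 and 27.1 in wild type, against 34.7 and 43.8 in the mutants. The reads of a gene were counted over its whole span, introns included, and 10 of the 10 genes described here have an exon length equal to their span in the files. Each change is therefore given beside that of genes of like span.

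The mineralization genes differed widely in level, with ifitm5 highest and runx2a lowest on average in both genotypes. By reads per kb, ifitm5, alpl, phex and panx3 lay above the median of protein-coding genes of their span class in all 4 libraries, and sp7, runx2a, runx2b and entpd5a lay below it in all 4. Levels are given as TPM, which divide the reads by the span and scale every library to one total. A gene counted as detected where it reached 10 reads and 1 TPM in both libraries of a genotype. By this rule 6 of the 10 genes were detected in wild type (ifitm5, panx3, spp1, alpl, phex and bglapl) and all 10 in the mutants. With wild-type library 1 alone, a count added after the values were seen, 9 genes were detected, and runx2a was not. At a limit of 5 TPM the numbers were 1 in wild type, ifitm5, and 5 in the mutants. The contrast of 6 and 10 depended on the scale. CPM scale the reads to the library total without dividing by the span. At 10 reads and 1 CPM the same 9 genes were detected in both genotypes, all but bglapl. With the low reference level described below subtracted, 5 were detected in wild type and 6 in the mutants. The median change of all genes on log2(TPM + 1) was 0.65, towards higher values in the mutants. By the first detection rule, none of the gene lists described below had fewer genes detected in the mutants. β-cell genes went from 10 to 18 of 19 and bone regulators and signals from 14 to 18 of 18. All 12 skin markers were detected in both genotypes. The share of all genes detected by this rule was not counted. In wild type ifitm5 lay above the other 9 genes, and from panx3 downwards to runx2a each gene overlapped the next in the order of the mean levels. In the mutants the order ran from ifitm5 (23.2 ± 8.67 TPM, SD, n = 2) through panx3 (12.1 ± 1.01), alpl (10.99 ± 3.45), phex (10.04 ± 0.775), spp1 (9.85 ± 4.82), runx2b (5.01 ± 1.60), sp7 (3.40 ± 0.348), bglapl (2.99 ± 1.24) and entpd5a (2.43 ± 0.309) to runx2a (2.2 ± 1.02). There ifitm5 and panx3, spp1 and runx2b, and runx2b and sp7 did not overlap, and the other neighbours did. Together the 10 genes summed to 38.7 and 39.3 TPM in wild type and to 67.2 and 97.2 TPM in the mutants. In these sorted pools, fewer cells of a type and less RNA per cell cannot be told apart.

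**Figure D1:**
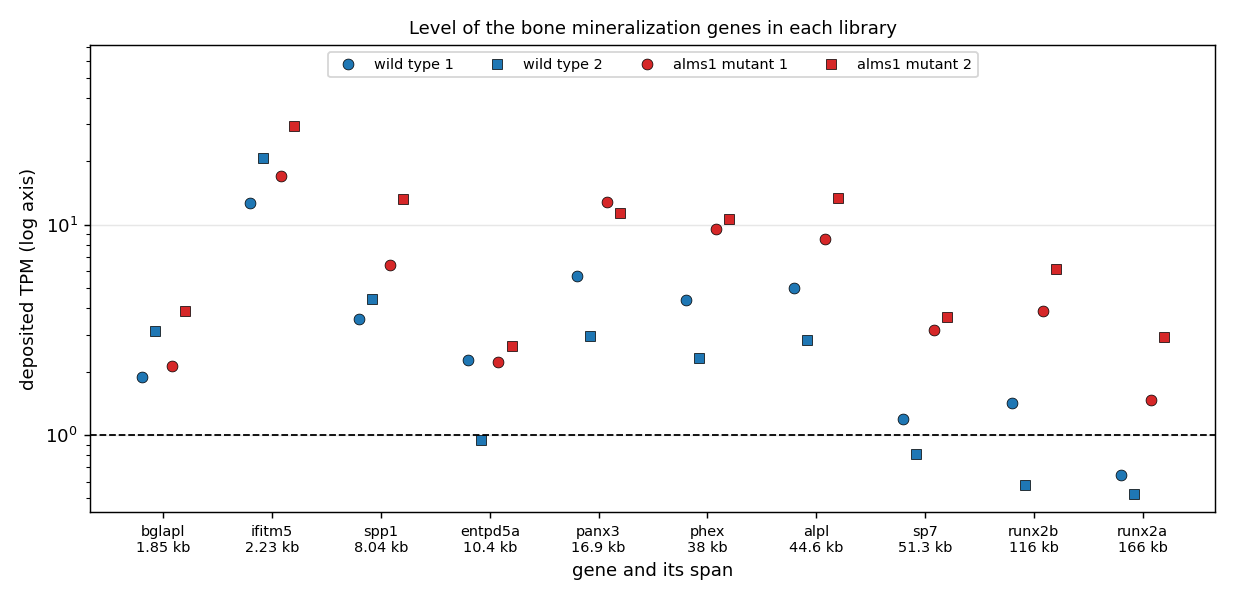
Deposited TPM (log axis) of the 10 bone mineralization genes in the 4 libraries, ordered by gene span, with circles and squares for libraries 1 and 2 and a dashed line at 1 TPM. ifitm5 is the highest gene in every library, and for panx3, phex, alpl, sp7, runx2b, runx2a and spp1 both mutant libraries lie above both wild-type libraries.

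Of the 10 genes, 2 were called higher in the mutants by the quasi-likelihood test of edgeR, runx2b and runx2a, which are the genes with the longest spans of the set (Benjamini-Hochberg adjusted p below 0.05, over 28079 genes tested). It called 0 lower, also at an unadjusted p under 0.05, and DESeq2 called 0 lower as well. Over all genes tested 19.2% were called higher and 24.3% lower, so that 2 of 10 is close to the background. Among genes that span 80 kb or more, as both of these do, 58.1% were called higher. At an unadjusted p under 0.05, 5 genes were higher (sp7, runx2a, runx2b, phex and alpl), and each of these spans more than 20 kb. Counted in both directions, 14880 of all 28079 genes tested were under that p, and 6102 of the 10100 genes of 20 kb or more. When a library was left out, the log2 fold change ranged from 0.59 to 1.06 for runx2a and from 1.13 to 1.85 for runx2b. A second fit took the dependence on span out of each library through an offset for every gene (span offsets). With span offsets 1 gene was called higher, runx2b, against 17.8% of all genes, and 0 were called lower, against 20.5%. Of the genes of 80 kb or more, 13.6% were called higher in that fit. At an unadjusted p under 0.05 that fit had runx2b and panx3 higher and none of the 10 lower, and DESeq2 was not run with span offsets. Counted in both directions, 14185 of the 28079 genes were under that p with span offsets.

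runx2a and runx2b are the zebrafish copies of Runx2, the transcription factor that commits mesenchymal cells to the osteoblast line. In the genome build of the files, GRCz10, runx2b covers bases 44095936 to 44211757 of chromosome 20, on the minus strand (116 kb). It had 1457 and 732 reads in wild type, against 3213 and 4477 in the mutants, or 1.42 and 0.577 TPM and 3.88 and 6.14 TPM. Both mutant libraries lay above both wild-type libraries, and the wild-type libraries differed by 1.99 times in reads per kb. The log2 fold change was 1.41 (SE 0.28, adjusted p = 0.00503, 6.64e-05 to 0.0513 over the alternatives). The median of the 1490 tested protein-coding genes with spans of 80 to 160 kb was 0.67, so that runx2b lay 0.73 above genes of its own span, higher than 85.8% of them. The fit with span offsets gave 0.79 (SE 0.27, adjusted p = 0.0468, 0.00485 to 0.203 over the alternatives). That second call was lost without wild-type library 2 (adjusted p = 0.149), without mutant library 1 (0.141), without mutant library 2 (0.203) and with the replicate number as a block (0.0552). Of its reads 86.7% to 89.9% were uniquely mapped.

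runx2a lies on the plus strand of chromosome 17 from 5194782 to 5360952, a span of 166 kb. It had 954 and 953 reads in wild type, against 1748 and 3050 in the mutants, or 0.646 and 0.524 TPM and 1.47 and 2.92 TPM. Of the reads, 216 and 329 were uniquely mapped in wild type, against 632 and 1491 in the mutants. In total reads the wild-type libraries hardly differed, and the mutants lay above them but apart from each other. The log2 fold change was 0.85 (SE 0.28, adjusted p = 0.0373, 0.0158 to 0.821 over the alternatives). It missed the threshold without mutant library 1 (adjusted p = 0.0563) and without mutant library 2 (0.273). Among 874 protein-coding genes of over 160 kb the median log2 fold change was 1.00, and runx2a lay below it, at percentile 40.5. With span offsets it was 0.087 (SE 0.28, adjusted p = 0.821, 0.244 to 0.847 over the alternatives), and it turned negative there without wild-type library 1 (-0.11) and without mutant library 2 (-0.18). The reads of this gene are uncertain. Of them 22.6% and 34.5% were uniquely mapped in wild type, against 36.2% and 48.9% in the mutants. The gene also overlaps supt3h, a protein-coding gene on the other strand, over 72298 bp, and the library kit does not mark strand. On uniquely mapped reads alone the log2 fold change of runx2a was 1.41 (adjusted p = 0.0244), and it was 0.66 with span offsets (adjusted p = 0.244). supt3h itself had 3534 and 3047 reads in wild type, against 5990 and 8767 in the mutants. A non-coding RNA gene on the other strand, LOC108179737, overlaps runx2a as well, over 32414 bp. It had 381 and 344 reads in wild type, against 335 and 677 in the mutants.

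sp7 encodes osterix, a zinc finger transcription factor needed for osteoblasts to mature. The gene covers bases 58628600 to 58679929 of chromosome 6, plus strand (51.3 kb). It had 542 and 455 reads in wild type, against 1158 and 1179 in the mutants, or 1.19 and 0.810 TPM and 3.16 and 3.65 TPM. The genotypes did not overlap, and the libraries of each lay close to each other. The log2 fold change of 0.80 (SE 0.29) did not pass the threshold (adjusted p = 0.0521, 0.0278 to 0.631 over the alternatives), and DESeq2 alone of the alternatives called it. The median of 2840 protein-coding genes of 40 to 80 kb was 0.34, so that sp7 lay 0.46 above it, at percentile 66.8. Its log2 fold change was 0.55 with span offsets (SE 0.29, adjusted p = 0.163).

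bglapl and spp1 encode matrix proteins. bglapl, an osteocalcin gene, encodes a small protein that binds the mineral through vitamin K-dependent residues. It lies on an unplaced scaffold from 8442 to 10291, a span of 1.85 kb, and had 31 and 63 reads in wild type, against 28 and 45 in the mutants. As TPM the wild-type values were 1.89 (1.28 to 2.68) and 3.11 (2.39 to 3.98) and the mutant values 2.12 (1.41 to 3.06) and 3.87 (2.82 to 5.17), with the exact Poisson interval at 95% in brackets, which covers counting error only. The genotypes overlapped, and at these counts no change was detectable (log2 fold change -0.89, SE 0.78, adjusted p = 0.375). spp1 encodes osteopontin, a secreted phosphoprotein that binds mineral and cells. On the minus strand of chromosome 10 it covers bases 15162591 to 15170630 (8.04 kb), and it had 254 and 389 reads in wild type, against 370 and 671 in the mutants. The reads of wild-type library 2 exceeded those of mutant library 1, although by TPM (3.56 and 4.42 in wild type, 6.44 and 13.3 in the mutants) the genotypes did not overlap. The change was 0.18 on the log2 scale (SE 0.44, adjusted p = 0.768), and it was negative without wild-type library 1 (-0.14) and without mutant library 2 (-0.12). The median of 4945 protein-coding genes of 5 to 10 kb was -0.55, which put spp1 0.72 above genes of like span, at percentile 65.1. The span offsets brought the log2 fold change to 0.63 (SE 0.44, adjusted p = 0.277).

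alpl, phex and entpd5a encode enzymes that act on phosphate compounds or on proteins that govern mineral. alpl encodes tissue-nonspecific alkaline phosphatase, which cleaves pyrophosphate and frees phosphate. Its gene, bases 27721602 to 27766233 of chromosome 11 on the plus strand (44.6 kb), had 1971 and 1384 reads in wild type, against 2725 and 3770 in the mutants, or 4.97 and 2.83 TPM and 8.55 and 13.4 TPM. The genotypes did not overlap, but the log2 fold change of 0.52 (SE 0.23, adjusted p = 0.0916) did not pass the threshold and lay 0.18 above the median of genes of 40 to 80 kb. phex encodes a membrane endopeptidase whose loss in humans causes phosphate wasting and soft bone. Its gene, bases 25259407 to 25297391 of chromosome 24 on the minus strand (38.0 kb), had 1474 and 967 reads in wild type, against 2576 and 2531 in the mutants, or 4.37 and 2.33 TPM and 9.5 and 10.6 TPM. Here too the genotypes did not overlap, and the log2 fold change of 0.67 (SE 0.25, adjusted p = 0.0611) did not pass. Genes of 20 to 40 kb had a median of 0.01, so that phex lay 0.66 above its span class, at percentile 69.0. Without wild-type library 1, alpl and phex were called higher (adjusted p = 0.0432 and 0.0208, with ranges of 0.0359 to 0.374 and 0.0208 to 0.364 over the alternatives). In the fit with span offsets the log2 fold changes were 0.32 for alpl (adjusted p = 0.278) and 0.54 for phex (adjusted p = 0.123).

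entpd5a encodes a nucleotide-hydrolysing enzyme without which zebrafish bone does not mineralize. On the minus strand of chromosome 17 it covers bases 44916646 to 44927034 (10.4 kb), and it had 210 and 108 reads in wild type, against 164 and 173 in the mutants, or 2.28 and 0.949 TPM and 2.21 and 2.65 TPM. The mutant libraries agreed closely and lay between the wild-type libraries by reads. entpd5a had a log2 fold change of -0.30 (SE 0.50, adjusted p = 0.644), beside a median of -0.32 over 5527 protein-coding genes of 10 to 20 kb. It turned to 0.090 with span offsets (SE 0.49, adjusted p = 0.893).

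ifitm5 and panx3 encode membrane proteins of osteoblasts. ifitm5 (also known as bril) encodes a small protein of the osteoblast membrane, mutated in a human brittle bone disorder. The gene covers bases 7330274 to 7332507 of chromosome 25, plus strand (2.23 kb), and had 252 and 508 reads in wild type, against 272 and 412 in the mutants, or 12.7 and 20.8 TPM and 17.0 and 29.3 TPM. The genotypes overlapped on both scales. ifitm5 had a log2 fold change of -0.68 (SE 0.50, adjusted p = 0.288), and genes of 2 to 5 kb had a median of -0.63, so that ifitm5 lay within 0.05 of its span class. The value rested on the wild-type libraries: without library 1 it was -1.12 (adjusted p = 0.0450, 0.0450 to 0.911 over the alternatives) and without library 2 it was 0.17 (adjusted p = 0.817). With span offsets it was -0.12 (SE 0.48, adjusted p = 0.852). panx3 encodes a pannexin, a channel protein that in mammals takes part in osteoblast and cartilage differentiation. Its gene, bases 31113392 to 31130255 of chromosome 10 on the minus strand (16.9 kb), had 854 and 543 reads in wild type, against 1543 and 1208 in the mutants, or 5.70 and 2.94 TPM and 12.8 and 11.4 TPM. The genotypes did not overlap. The log2 fold change was 0.60 (SE 0.32, adjusted p = 0.154, 0.0279 to 0.721 over the alternatives) and lay 0.92 above the median of genes of 10 to 20 kb, at percentile 70.3. Of the 10 genes it lay farthest above its span class. Its log2 fold change with span offsets was 0.80 (SE 0.32, adjusted p = 0.0792), and it was called when only genes with a span under 20 kb were tested (log2 fold change 1.05, adjusted p = 0.0481).

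**Figure D2:**
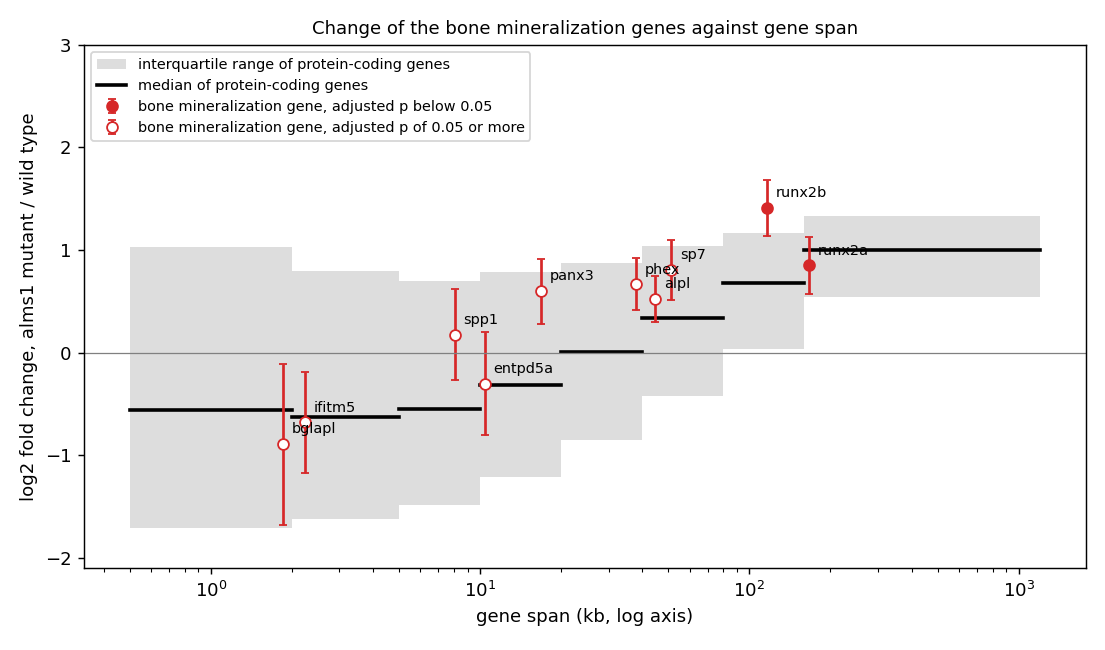
Log2 fold change, alms1 mutant over wild type, of the 10 bone mineralization genes against gene span in kb (log axis), with standard errors as bars and filled points where the adjusted p was below 0.05. Black lines and grey boxes give the median and the interquartile range of the protein-coding genes tested in each of the span classes. The median goes from -0.56 under 2 kb to 1.00 over 160 kb. Of the 10 genes, 7 lie above the median of their class, with panx3, runx2b and spp1 farthest above.

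The changes of the mineralization genes ran in much the order of their spans. The 5 genes under 20 kb had a median log2 fold change of -0.30 and the 5 genes of 20 kb or more a median of 0.80. Over all genes tested the medians were -0.27 for 17979 genes under 20 kb and 0.40 for 10100 genes of 20 kb or more. The share of protein-coding genes called higher rose with span from 7.86% under 2 kb to 49.9% at 80 to 160 kb and 70.1% over 160 kb. Of the 10 genes, 7 lay above the median of their span class and 3 below it (runx2a, bglapl and ifitm5), and the median distance was 0.32. With span offsets the median of the 10 genes was 0.43 and that of all genes 0.11. The standard errors of the 10 genes were between 0.23 and 0.77 in that fit.

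**Figure D3:**
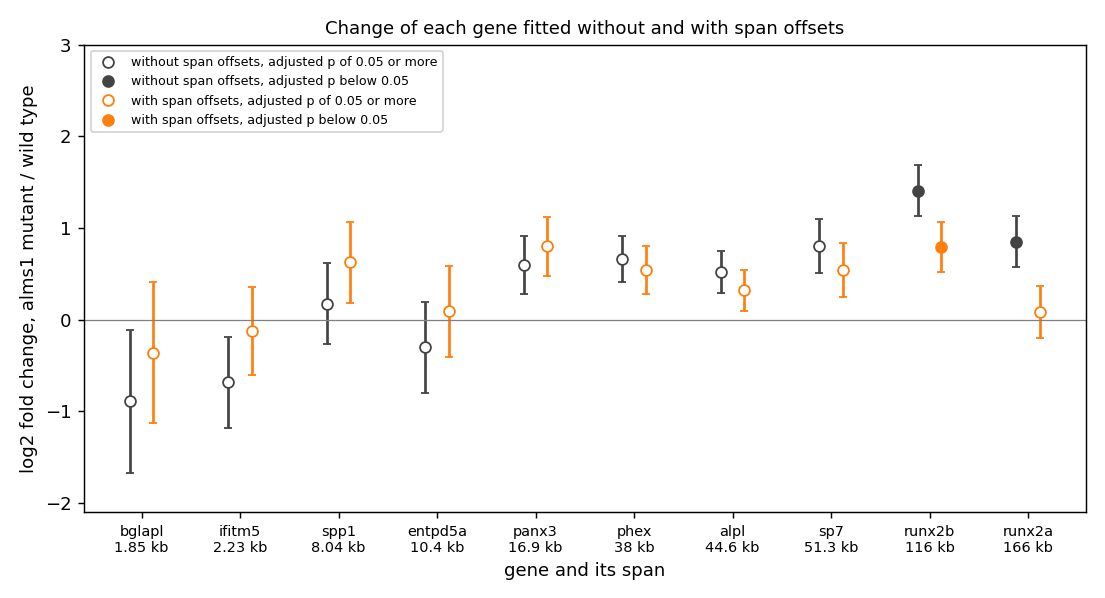
Log2 fold change, alms1 mutant over wild type, of each of the 10 genes fitted without span offsets (grey) and with them (orange), with standard errors as bars and filled points where the adjusted p was below 0.05. The offsets move the short genes bglapl, ifitm5, spp1 and entpd5a upwards and the long genes downwards, runx2a most of all, from 0.85 to 0.087, and runx2b stays filled in both fits.

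Each gene was also set against a low reference level in the same library, the 10th percentile of read density over 1509 protein-coding genes with spans of 80 to 160 kb. That level was 8.03 and 5.23 reads per kb in wild type, against 15.0 and 21.8 in the mutants, and how much of it is background was not tested. ifitm5 stood highest above it, at 14.1 and 43.5 times in wild type and 8.11 and 8.47 times in the mutants. alpl (5.50, 5.93, 4.07 and 3.88 times in the same order), panx3 (6.31, 6.16, 6.1 and 3.29), phex (4.84, 4.87, 4.52 and 3.06) and spp1 (3.94, 9.26, 3.07 and 3.83) stood above it in all libraries. The regulators stood near it: sp7 at 1.32, 1.70, 1.5 and 1.06 times, runx2b at 1.57, 1.21, 1.85 and 1.78 times, and runx2a at 0.715, 1.1, 0.701 and 0.843 times. entpd5a went from 2.52 and 1.99 times in wild type to 1.05 and 0.765 times in the mutants. bglapl went from 2.09 and 6.52 times to 1.01 and 1.12 times. Before the division both genes overlapped between the genotypes. entpd5a had 20.2 and 10.4 reads per kb in wild type, against 15.8 and 16.7 in the mutants. bglapl had 16.8 and 34.1, against 15.1 and 24.3. Both genes are shorter than the genes of 80 to 160 kb that set the level.

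By TPM 7 of the 10 genes had both mutant libraries above both wild-type libraries and 0 had both below, against 58.0% and 14.1% of all genes tested. Relative to the 10th percentile 1 gene, runx2b, had both mutant libraries above, and 7 had both below (bglapl, spp1, phex, entpd5a, ifitm5, alpl and panx3), against 12.7% and 61.1% of all genes tested. Neither count is far from its background, and the division moves all genes of a library alike, so that nothing is read from the change between both counts. With the same level subtracted in place of the division, edgeR called phex (log2 fold change 1.18, adjusted p = 0.0451) and alpl (1.05, adjusted p = 0.0462) higher. In that setting 2455 of all 23201 genes tested were called higher and 3579 lower. Relative to the 10th percentile, by division, sp7 and runx2a overlapped between the genotypes. This count was chosen after the values were seen.

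**Figure D4:**
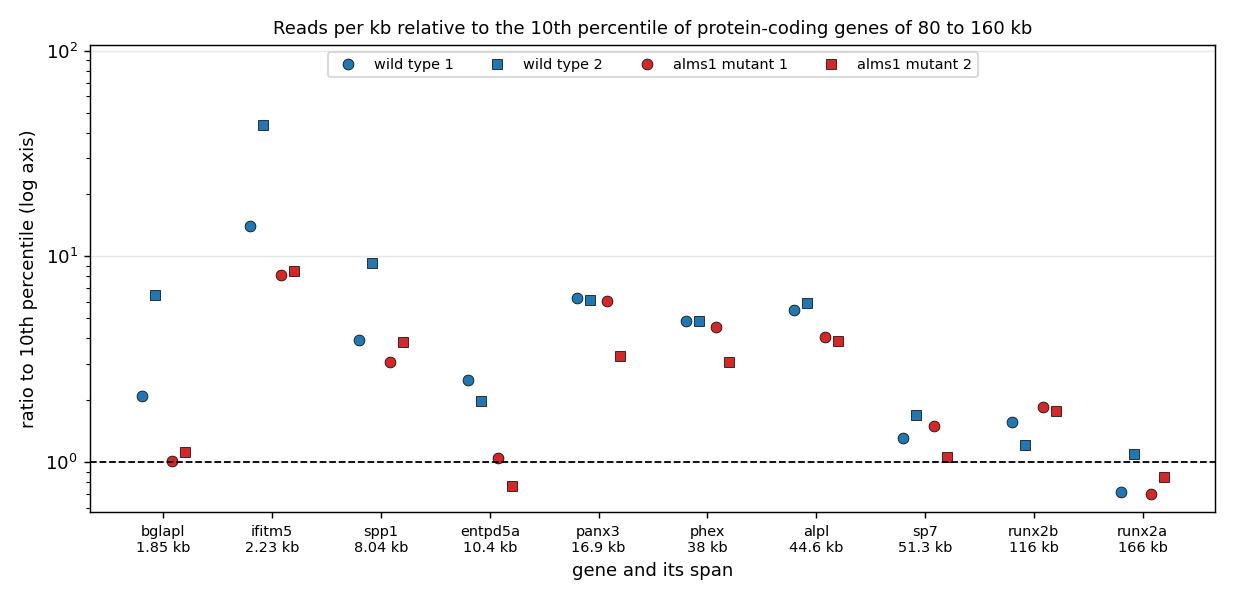
Reads per kb of each of the 10 genes divided by the low reference level of its library (log axis), the 10th percentile of read density over protein-coding genes with spans of 80 to 160 kb, with a dashed line where both are equal. ifitm5 lies at 8.11 to 43.5 times the level, sp7, runx2a and runx2b lie between 0.701 and 1.85 times, and the mutant values of bglapl and entpd5a lie at 0.765 to 1.12 times.

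The wild-type libraries did not differ from each other in the same way for all genes of the set. For bglapl, ifitm5 and spp1, library 1 had 0.492, 0.496 and 0.653 times the reads per kb of library 2. For runx2b, entpd5a, panx3, phex, alpl and sp7 the ratio was 1.99, 1.94, 1.57, 1.52, 1.42 and 1.19, and for runx2a it was 1.00. The ratio of the class medians of protein-coding genes was above 1 in each span class, between 1.31 and 1.65. bglapl, ifitm5 and spp1 thus differed in the other direction from the medians of their span classes.

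Lists of bone genes, chosen with earlier results of these data known, were described by their counts beside all genes, of which 19.2% were called higher and 24.3% lower. No difference between a list and the mineralization genes was tested. The lists group genes by known role, and which cells their reads came from was not tested. Of 18 genes of bone regulators and signals, 10 were lower and 1 was higher in the mutants, and the median log2 fold change was -1.52, compared with 0.03 over all genes tested. Named by the smallest adjusted p, these were bmp4, a bone morphogenetic protein gene (16.3 ± 5.00 TPM in wild type and 5.66 ± 1.01 in the mutants, SD, n = 2, log2 fold change -2.49, adjusted p = 0.000520), sost, a Wnt inhibitor gene of osteocytes (114 ± 9.38 and 40.8 ± 16.3 TPM, log2 fold change -2.54, adjusted p = 0.000647), and dlx3b, a homeobox gene (103 ± 10.99 and 41.0 ± 9.84 TPM, log2 fold change -2.35, adjusted p = 0.000663). The one higher gene was ihha, an Indian hedgehog gene, named after its values were seen (log2 fold change 1.22, adjusted p = 0.0439, 0.00985 to 0.323 over the alternatives). Some of the genes counted as lower rest on reads that map to more than 1 place: bmp2b here, omd among bone matrix genes and epyc among cartilage markers had no uniquely mapped read, and of the fin and dermal markers lum had 0.015%, dcn 0.046% and prrx1a 0.0092%.

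Of 14 bone matrix genes tested, 9 were lower and 2 higher, with a median log2 fold change of -1.24. The collagen genes col1a2 (772 ± 146 TPM in wild type and 137 ± 16.7 in the mutants, SD, n = 2), col5a2a (69.9 ± 5.77 and 17.7 ± 1.84) and col1a1a (1631 ± 211 and 323 ± 23.7) fell by 3.48, 2.99 and 3.33 on the log2 scale (adjusted p = 0.000493, 0.000531 and 0.000611). Type I collagen is also made by skin and other connective tissue. The higher genes, named after their values were seen, were mgp, an inhibitor of mineral growth of whose reads 5.77% were uniquely mapped, and scpp1, a secreted calcium-binding phosphoprotein gene. Of 13 genes that handle phosphate and pyrophosphate, 5 were higher and 4 lower, with a median of 0.53. Among these the phosphate transporter genes slc20a1b and slc20a1a went in opposite directions: slc20a1b fell from 101 ± 5.98 to 25.5 ± 6.01 TPM (log2 fold change -3.03, adjusted p = 0.000497), and slc20a1a rose from 17.2 ± 7.49 to 89.9 ± 16.2 TPM (log2 fold change 1.45, adjusted p = 0.00220). The transporter gene slc34a1a rose from 0.585 ± 0.321 to 5.12 ± 2.51 TPM (log2 fold change 2.16, adjusted p = 0.00491).

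Of 12 genes of osteoclasts, the cells that resorb bone, 3 were lower, a share close to the 24.3% of all genes: the protease gene ctsk (log2 fold change -2.56, adjusted p = 0.000663), the receptor gene csf1rb (-2.30, adjusted p = 0.00128) and tnfrsf11a, the receptor gene for the osteoclast differentiation signal (-1.59, adjusted p = 0.00369). edgeR called 0 of the 12 higher, also at an unadjusted p under 0.05, and so did DESeq2. With span offsets the counts of genes higher and lower were 1 and 10 for regulators and signals and 3 and 8 for matrix. They were 3 and 4 for phosphate and pyrophosphate and 0 and 3 for osteoclasts. Over all genes tested 17.8% were called higher and 20.5% lower in that fit. On log2(TPM + 1) the median change of all genes was 0.65, and limma-trend called 8749 of 29970 genes higher and 1399 lower. Among regulators and signals it called 1 higher and 6 lower, and in the matrix list 3 and 6. It called 5 and 1 in the phosphate and pyrophosphate list and 2 and 2 in the osteoclast list, whose median was 0.67 there.

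**Figure D5:**
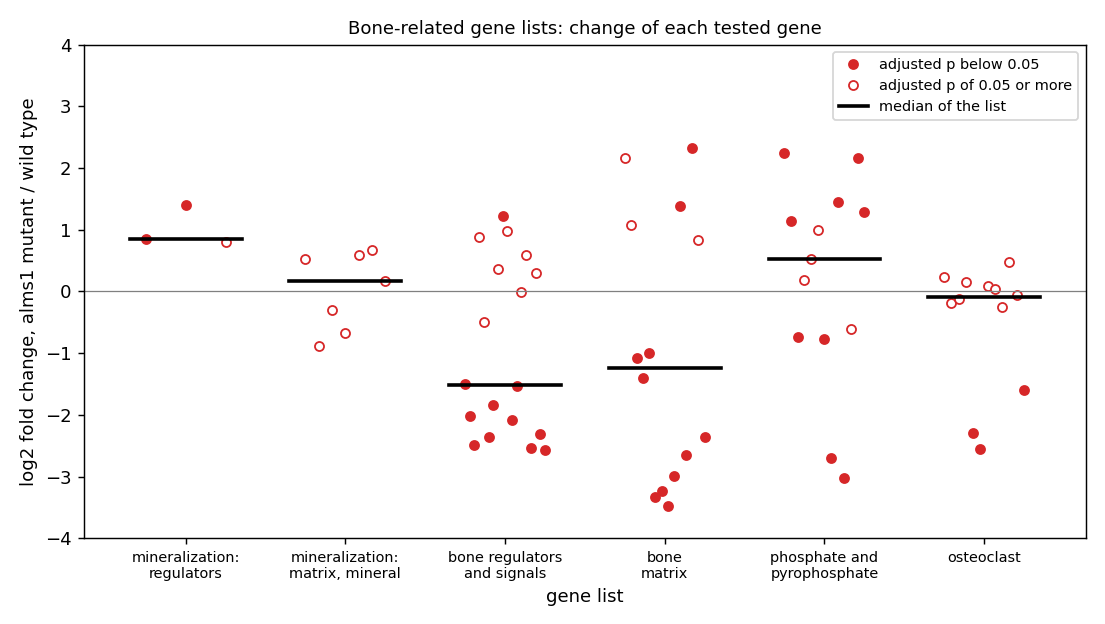
Log2 fold change, alms1 mutant over wild type, of each tested gene of the bone-related lists, with filled points where the adjusted p was below 0.05 and a bar at the median of each list. The medians are 0.85 for the 3 mineralization regulators and 0.18 for the other 7 mineralization genes, -1.52 for bone regulators and signals, -1.24 for bone matrix, 0.53 for phosphate and pyrophosphate genes and -0.09 for osteoclast genes.

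Markers of other cell types also differed between the genotypes, and no marker of the lists below was at 0 reads in any library. Skin markers, led by krt4 and cyt1, summed to 80043 and 50340 TPM in wild type, against 11984 and 15090 in the mutants, and 12 of 12 were lower. Markers of fin and dermal mesenchyme, led by and2 and and1, summed to 7043 and 4094 TPM in wild type, against 2191 and 2944 in the mutants, and 11 of 14 were lower and 1 higher. Cartilage markers, led by col2a1a and hapln1a, summed to 408 and 281 TPM and to 90.3 and 149 TPM, and 11 of 16 were lower. Leukocyte markers, led by mfap4 and mpeg1.1, summed to 554 and 349 TPM and to 248 and 302 TPM, and 6 of 8 were lower. In the opposite direction by summed TPM, skeletal muscle markers, led by mylpfa and actc1b, summed to 2123 and 1722 TPM and to 8859 and 8332 TPM, with 7 of 10 higher and 1 lower. Erythroid markers, led by hbbe1.1 and hbae3, summed to 57228 and 65319 TPM and to 218435 and 184611 TPM, with 3 of 7 higher. β-cell genes, led by neurod1 and insb, summed to 151 and 90.1 TPM and to 214 and 304 TPM, with 4 of 19 higher, close to the 19.2% of all genes, and 1 lower. Of the genes named for muscle, erythroid and β-cell lists, edgeR called mylpfa, actc1b and insb higher. It did not call hbbe1.1 (log2 fold change 0.93, adjusted p = 0.104), hbae3 (-0.03, adjusted p = 0.955) or neurod1 (-0.50, adjusted p = 0.134). On log2(TPM + 1), limma-trend called 8749 of all 29970 genes in that fit higher and 1399 lower. Among the markers it called lower 10 skin, 7 fin and dermal, 5 cartilage and 1 leukocyte markers. It called higher 8 skeletal muscle, 7 erythroid and 8 β-cell genes and 1 fin and dermal marker. The part of these differences in the values of the mineralization genes was not tested, nor was that of the reads over long genes beyond the span offsets.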

How the data were processed

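The labels gave the group and the replicate number of each library. The authors aligned the reads with CLC Genomics Server to GRCz10, the build in the submitters' processing notes. Its gene annotation and any filter on reads are not stated in the paper, labels or file headers. Counts were deposited as whole numbers for each gene, once with and once without multiply mapped reads. The deposited TPM and RPKM are reads per kb, scaled by the authors' program to the library or to all mapped reads; RPKM were not used. Counts were all exon reads, with all gene reads in their place for 15924 genes that are listed with no exon. The depth was 42761199 to 50467517 reads. For 99.4% of the genes exon length equals span, and 0 reads were counted across exon-exon junctions. Chromosome numbers were taken from shared gene symbols of the assembly GRCz12tu (98.4% to 99.1% on the same chromosome), and no coordinate was.

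Mutant and wild-type libraries were compared with edgeR 4.0.16 in R 4.3.3 (TMM, filterByExpr, quasi-likelihood F test, threshold 0.05 after Benjamini-Hochberg adjustment). Each fold change divides mutant by wild type, and the standard error is the log2 fold change divided by the square root of F. All adjusted p-values printed are from this test, unless DESeq2 or limma is named. Ranges over the alternatives also take in DESeq2 and limma-trend, except those of the fit with span offsets. Span offsets were lowess curves of each library's log2 deviation from the mean of the 4 libraries against log2 span over protein-coding genes, added to the TMM-scaled library sizes. With 2 libraries against 2, an exact permutation test cannot pass 0.05, so none was used. Alternatives were uniquely mapped and whole-gene reads, DESeq2 1.42.0, RLE size factors, limma-trend (limma 3.58.1) on log2(TPM + 1) and log2(TPM + 0.1), other filters, a replicate block, subtraction of the reference level at the 10th percentile, genes under 20 kb only, and leaving out each library. All 10 genes are named, with up to 3 called genes of each bone list by adjusted p and the 2 highest genes of each list of another cell type. The genes and lists were chosen with earlier results of these data known. Of the listed genes 3 had no row of that name (snorc, cnmd and hbae1.1). Tables and plots were made with Python 3.11.15.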

Additional observations from a re-analysis of the deposited data

How the results depend on the processing

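The 10 mineralization genes and alms1 gave 235 log2 fold changes under the alternatives, of which 188 kept their direction and side of the threshold, 16 newly passed it, 10 no longer passed it and 21 changed sign. The number of genes called higher was 2, beside 5380 of all 28079 genes tested. It was 4 by limma-trend on log2(TPM + 1) and on log2(TPM + 0.1) (runx2b, phex, alpl and panx3 in both). Of all 29970 genes in those fits, 8749 and 7924 were called higher. The number was 1 with span offsets (5007 of 28079 genes) and 1 among genes under 20 kb only (2753 of 17979 genes). The number called lower was 0, beside 6835 of all 28079 genes tested, and it was 0 in every alternative that kept all 4 libraries. Without wild-type library 1 the log2 fold change of ifitm5 was -1.12. With span offsets the number called higher was 1, and it was 0 with the replicate block, where 4607 of all 28079 genes were called higher. When a library was left out in that fit, the log2 fold change of runx2b ranged from 0.52 to 1.13. Without the offsets the replicate block left 2 genes called higher, beside 4842 of all 28079 genes. Across 28100 genes the difference of replicate 1 from replicate 2 correlated at -0.0971 between the genotypes. The labels do not say whether libraries of the same number share a sort or clutch. With 1 difference per genotype, the correlation cannot settle this. The number detected in wild type, 6, was 1 at a TPM of at least 5 and 5 after the 10th percentile was subtracted. It was 7 on uniquely mapped reads and 9 at a CPM of at least 1. The number detected in the mutants, 10, was 5, 6, 9 and 9 in the same order. When a library was left out these numbers were 6 to 9 in wild type, which was not planned in advance, and 10 in the mutants.

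Signs changed on log2(TPM + 1) and log2(TPM + 0.1), where the medians of all genes were 0.65 and 0.99, for bglapl (0.18 and 0.23), entpd5a (0.44 and 0.67), ifitm5 (0.44 and 0.46) and alms1 (0.10 and 0.093). entpd5a also turned with span offsets (0.090) and among genes under 20 kb (0.15), and ifitm5 with both span offsets and the replicate block (0.010). When a library was left out, the log2 fold change ranged from -0.14 to 0.75 for spp1 (negative also without mutant library 2, -0.12), from -0.56 to 0.12 for entpd5a and from -1.12 to 0.17 for ifitm5. With span offsets these ranges were -0.18 to 0.31 for runx2a (-0.11 without wild-type library 1), -1.01 to 0.34 for bglapl, -0.18 to 0.38 for entpd5a (-0.05 without mutant library 1) and -0.75 to 0.60 for ifitm5. The cause was not tested. After the 10th percentile was subtracted 2 genes were called higher, phex and alpl in place of runx2a, which did not pass the filter on low counts, and runx2b (adjusted p = 0.0513 by edgeR). Of all 23201 genes tested there, 2455 were called higher and 3579 lower. In that setting the log2 fold change was -3.60 for bglapl and -4.16 for entpd5a, against -0.89 and -0.30 without it. Neither passed the threshold (adjusted p = 0.232 and 0.184 by edgeR). In the mutants the level subtracted was 27.8 and 40.3 reads for bglapl, which had 28 and 45. For entpd5a it was 156 and 226 reads, against 164 and 173, so that few or no mutant reads remained. The 28 to 63 reads of bglapl limit what its values can show.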
